A study of Mus musculus with 4 samples.

Results

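The genes examined here are those of 5 hormone receptors, Prlr, Agtr2, Esr1, Ghr and Lepr, in mouse Achilles tendon, which joins the calf muscles to the heel bone. They were taken by symbol, and each symbol matched 1 of the 33696 genes listed (Prlr ENSMUSG00000005268, Agtr2 ENSMUSG00000068122, Esr1 ENSMUSG00000019768, Ghr ENSMUSG00000055737, Lepr ENSMUSG00000057722). The genes were picked because their measured levels differ between the cell types and libraries of these same data, so every level and ratio of them below is a description and none is a test. Droplet-based single-cell RNA sequencing gave 4 libraries, with 1 library per group. The groups were injured Achilles tendon of adults aged 6 to 8 weeks (adult injury), uninjured tendon of adults of that age (adult control), injured tendon of neonates at postnatal day 3 (neonate injury) and uninjured tendon of neonates at that age (neonate control). The labels give no strain, genotype, kind of injury, time from injury to harvest or number of mice per library. Nor do they say if injured mice were of the stated age when injured or when the tendon was taken.

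Prlr is the receptor of prolactin and Ghr that of growth hormone. Both belong to the class I cytokine receptors, as does Lepr, the receptor of leptin. These receptors have no kinase of their own and signal through JAK kinases bound to them, chiefly JAK2, which phosphorylate STAT proteins. Agtr2 is the type 2 receptor of angiotensin II, a G protein-coupled receptor known for its high level in fetal connective tissue and its low level in most adult tissues. Esr1 encodes oestrogen receptor alpha, a nuclear receptor that binds DNA itself. Growth hormone is known to raise Igf1 transcription through Ghr and STAT5, and leptin receptor marks a class of stromal cells in bone marrow.

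The DNA just before a listed transcription start is shown for 3 of the genes, with matches to a STAT-type motif marked. Any link of the motif to the levels was not tested. The sequences are those of RefSeq on GRCm38.p6, each 250 bases long, 5′ to 3′ on the strand of the gene. For Prlr (plus strand, chr15:10223656-10223905) and Esr1 (plus strand, chr10:4709908-4710157) the start shown is the 1 of several listed whose window held the motif TTCNNNGAA, and the capitals mark the match. For Agtr2 (plus strand, chrX:21484374-21484623) the only listed start is shown, and its window held no match.
Prlr: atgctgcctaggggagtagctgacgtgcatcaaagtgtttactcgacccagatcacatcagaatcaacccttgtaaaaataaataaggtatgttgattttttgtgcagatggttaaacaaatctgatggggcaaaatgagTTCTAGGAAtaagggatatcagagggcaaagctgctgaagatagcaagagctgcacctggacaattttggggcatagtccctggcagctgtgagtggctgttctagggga
Esr1: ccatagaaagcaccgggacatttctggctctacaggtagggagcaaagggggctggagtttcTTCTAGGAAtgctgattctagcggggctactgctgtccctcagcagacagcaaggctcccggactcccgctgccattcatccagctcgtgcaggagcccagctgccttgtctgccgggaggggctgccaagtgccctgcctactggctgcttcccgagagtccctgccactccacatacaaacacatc
Agtr2: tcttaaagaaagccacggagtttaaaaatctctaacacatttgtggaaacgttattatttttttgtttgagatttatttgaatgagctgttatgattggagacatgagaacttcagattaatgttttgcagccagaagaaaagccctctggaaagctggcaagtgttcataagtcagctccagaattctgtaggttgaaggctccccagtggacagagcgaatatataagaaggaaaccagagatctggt
The match lay 110 bases before the start in Prlr and 188 bases before it in Esr1. Only 1 of the 3 listed windows of Prlr and 1 of the 2 of Esr1 held the motif. Neither the 2 windows of Ghr nor the 2 of Lepr, which are not shown, held it. On both strands, TTCNNNGAA was present in 8.30% of the 32851 promoter windows of 300 bases in the table. The palindromic oestrogen response element, searched in the same way, was present in 0.0700% of them and in none of the 10 windows of the 5 genes. A match is a run of letters and was not measured as a bound site.

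After removal of low-quality barcodes and doublets, 4454 adult injury, 5814 adult control, 13112 neonate injury and 9559 neonate control cells were kept. Cells were grouped into clusters without use of the 5 genes, and clusters were called tenocyte-like, fibroblast-like and so on from marker genes. Tenocyte-like and fibroblast-like clusters together, here the fibroblast lineage, held 1857, 3666, 7923 and 5308 cells in that order of libraries, with median depths of 20823, 11509, 6203 and 10962 UMIs per cell. UMIs, each standing for 1 captured RNA molecule, were added up by class and library, and a level is the number per 1000000 UMIs of that class in that library (CPM). Brackets hold exact 95% intervals, which cover counting error only and no difference between animals. Levels are compared within a gene. Since depth differed, shares of cells with a UMI are given after each cell was thinned to 2000 UMIs. Of the fibroblast lineage, 82, 111, 377 and 64 cells were shallower and were left out of these shares. The libraries shared 3 to 49 barcodes pairwise, at most 0.450% of a library.

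The libraries also differed in sex markers. Cells with a UMI of Xist, the RNA of X inactivation in females, and no Y-linked UMI made up 90.6% of the fibroblast lineage in adult injury, 94.9% in adult control, 75.7% in neonate injury and 0.0188% in neonate control. Cells with a Y-linked UMI and no Xist made up 0.0539%, 0%, 14.6% and 86.7% of these libraries. In comparisons of all cells with the neonate control, injury or age therefore cannot be told apart from sex.

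Across cell classes, most Prlr and Agtr2 UMIs lay in the fibroblast lineage, and Ghr was spread over stromal, endothelial and muscle classes. Esr1 and Lepr each reached a high level in a class outside the lineage, myogenic progenitor-like and blood endothelial-like cells. Agtr2 did so too, at 211 CPM in the 77 myofibre-like cells of neonate control. Of the UMIs of all genes, the fibroblast lineage held 64.2% in adult injury, 71.7% in adult control, 64.9% in neonate injury and 56.8% in neonate control. The fibroblast lineage held 94.0% to 98.2% of all Prlr UMIs of a library and 87.6% to 98.5% of Agtr2 UMIs. It held 72.0% to 94.7% of Esr1 UMIs and 72.4% to 89.4% of Ghr UMIs. Of Lepr UMIs it held 86.4% in adult control, 59.5% in neonate injury and 64.1% in neonate control. In adult injury it held 23.5% of them, and blood endothelial-like cells held 48.9%.

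**Figure D1:**
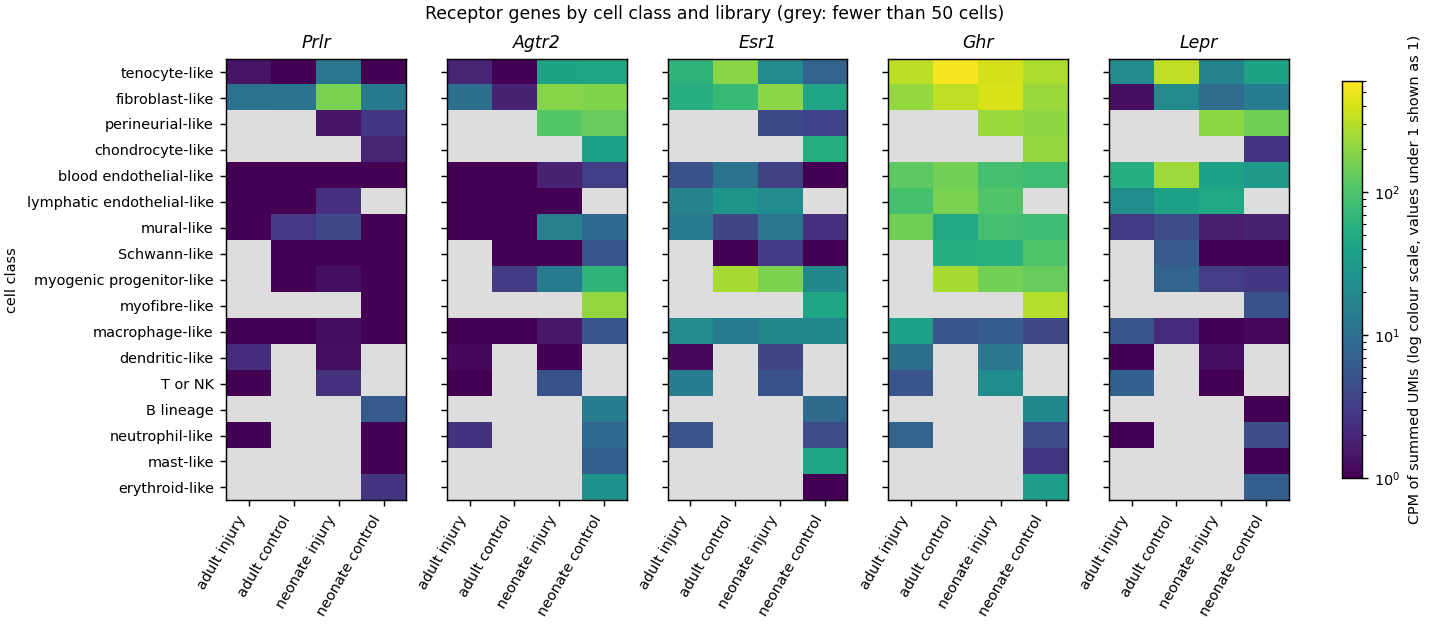
CPM of the 5 receptor genes (log colour scale) in each cell class (rows) and library (columns), with classes of fewer than 50 cells in grey. Prlr is brightest in fibroblast-like cells of the neonate injury library (167 CPM), Lepr in tenocyte-like and blood endothelial-like cells of the adult control (323 and 233 CPM), and Esr1 in myogenic progenitor-like cells of the adult control (262 CPM).

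Prlr was high in a single library. In the fibroblast lineage it was at 10.5 CPM [9.56, 11.5] in adult injury, 5.20 CPM [4.56, 5.91] in adult control, 107 CPM [104, 109] in neonate injury and 11.6 CPM [10.8, 12.5] in neonate control. Neonate injury was the highest, adult injury and neonate control had overlapping intervals, and adult control was the lowest. After thinning, 14.7% [13.9, 15.5] of neonate injury cells had a Prlr UMI, against 2.65% [2.23, 3.12] of neonate control cells. Blood endothelial-like cells held 4 Prlr UMIs in neonate injury and 0 in neonate control. After thinning, 0% of them had a Prlr UMI in both libraries (upper bounds 0.510% and 1.21%, at median depths of 4496 and 7759 UMIs). The 48 erythroid-like cells of neonate injury held 22 Prlr UMIs among 289606 UMIs. This was not particular to Prlr, since they also held 35 Agtr2, 37 Esr1 and 112 Ghr UMIs, and 1 Lepr UMI. Where these UMIs came from was not tested.

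Prlr was 9.19 times as high in neonate injury as in neonate control (log2 ratio 3.20 [3.09, 3.31]). In fibroblast-like clusters alone the levels were 167 and 13.4 CPM (log2 3.64), and in tenocyte-like clusters alone 12.3 and 0.989 CPM (log2 3.56). Of the clusters of the fibroblast lineage, 8 had at least 50 cells in both neonate libraries, and Prlr was at least 2-fold higher after injury in all 8, with log2 ratios of 1.22 to 4.82. The difference was thus present within clusters as well as in the sum. Among neonate injury clusters, Prlr was at 513 CPM in one led by Ifi203, Cxcl9 and Ifit1, genes of the interferon response, against 37.7 CPM in the neonate control cells of that cluster. In the cluster led by Igf1 and Adamts19, which held 1793 neonate injury and 171 neonate control cells, Prlr was at 277 and 30.0 CPM. Prlr is itself among the leading genes of both clusters, although it was not used to form them.

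Within the neonate injury library, Prlr was higher outside than inside the gates on tendon markers. It was at 197 CPM in cells with at least 2 UMIs of Dlk1, a gene of immature mesenchyme, and at 63.1 CPM in the other cells. Cells with at least 2 UMIs of Tnmd, the tenocyte marker tenomodulin, had 20.2 CPM, against 152 CPM outside this gate. Cells with at least 2 UMIs of C1qtnf3 and Matn4 in sum had 29.4 CPM, against 199 CPM outside. Of thinned neonate injury cells with a Prlr UMI, 34.0% [31.2, 36.9] also had an Agtr2 UMI and 37.7% [34.9, 40.6] an Esr1 UMI. In cells without a Prlr UMI these shares were 16.4% and 16.1%. The share with a Lepr UMI was 1.53% in cells with Prlr and 2.66% in cells without it.

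In the adult, the Prlr ratio depended on which clusters were summed. Over the fibroblast lineage it was at 10.5 CPM in adult injury and 5.20 CPM in adult control (log2 1.01 [0.78, 1.24]). In fibroblast-like clusters alone it was at 10.9 and 11.6 CPM (log2 -0.09 [-0.32, 0.14]). Tenocyte-like cells, in which Prlr had 3 UMIs in adult injury and 2 UMIs in adult control, made up 139 of the 1857 lineage cells in adult injury and 2119 of the 3666 in adult control. Most fibroblast-like cells of adult injury (1285) lay in a cluster led by Cxcl5, Tnn and Kif26b that held 3 adult control cells, while those of adult control lay in a cluster led by Dpep1, Gsn and C3 (898 cells) and one led by Pi16 (593 cells). In the Dpep1 cluster Prlr was at 72.5 CPM in adult injury (78 cells, 58 UMIs) and 20.5 CPM in adult control (log2 1.83 [1.37, 2.25]). The annotation GENCODE M21 lists Gm21973, a protein-coding gene, over Prlr on the same strand, so part of the Prlr signal could be assigned between them, and this was not tested.

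**Figure D2:**
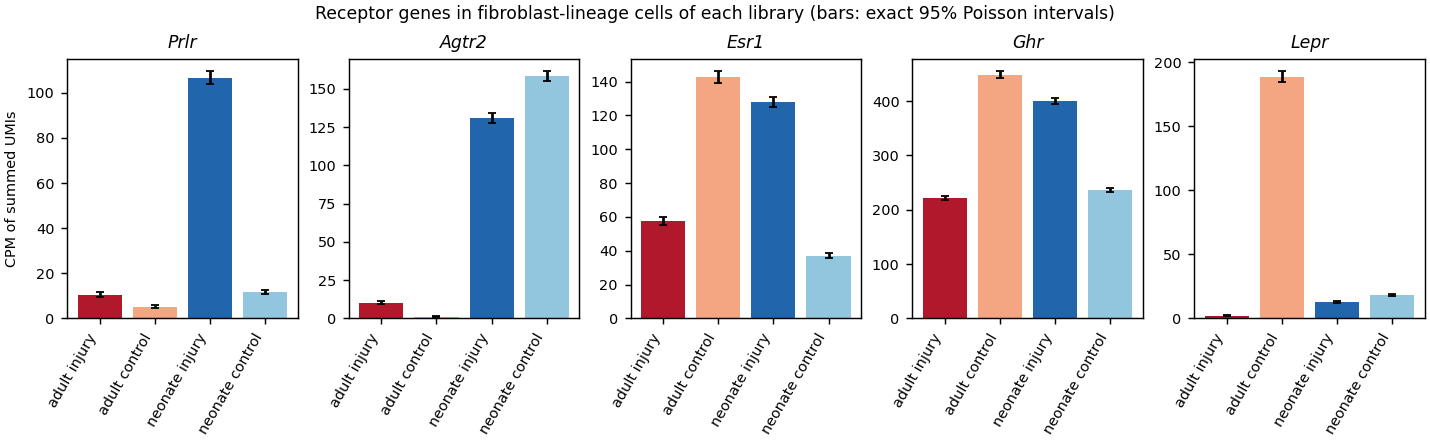
CPM of each gene in fibroblast-lineage cells, 1 bar per library, with exact 95% Poisson intervals (each panel has its own scale, starting at 0). Prlr stands out in neonate injury (107 CPM), Agtr2 in both neonate libraries (131 and 158 CPM), Lepr in adult control (189 CPM), and Esr1 and Ghr in adult control and neonate injury.

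Agtr2 was a gene of the neonate libraries. In the fibroblast lineage it was at 10.3 CPM [9.34, 11.3] in adult injury, 0.952 CPM [0.69, 1.28] in adult control, 131 CPM [128, 134] in neonate injury and 158 CPM [155, 161] in neonate control. No 2 of these intervals overlapped. The adult control was lower than the neonate control by 7.36 on the log2 scale (log2 ratio -7.36 [-7.84, -6.95]), from 43 UMIs in adult control and 10000 UMIs in neonate control. The ratio was -6.53 in fibroblast-like and -7.66 in tenocyte-like clusters alone. Agtr2 lies on the X chromosome.

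The Agtr2 ratio between injured and control libraries was near 0 in the neonate and above 2-fold in the adult, and the difference between these ratios was not tested. The log2 ratio of neonate injury over neonate control was -0.27 [-0.32, -0.23]. It was 0.09 [0.04, 0.14] in fibroblast-like clusters and -0.10 [-0.27, 0.07] in tenocyte-like clusters, which made up more of the lineage in neonate injury (2901 of 7923 cells) than in neonate control (931 of 5308 cells). Over the 8 shared clusters it was above 0 in 4, with a range of -1.22 to 0.90. The log2 ratio of adult injury over adult control was 3.42 [2.98, 3.92], and 2.47 [2.01, 3.01] in fibroblast-like clusters alone (10.7 and 1.90 CPM). In adult injury, thinned cells had an Agtr2 UMI in 1.63% [1.10, 2.34] of cases, against 0.309% [0.155, 0.553] in adult control. Blood endothelial-like cells of both adult libraries had 0 Agtr2 UMIs, where 3 counts would be 0.813 and 0.624 CPM.

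Outside the fibroblast lineage, Agtr2 was at 110 CPM in neonate injury and 134 CPM in neonate control in perineurial-like cells, which sheathe nerve bundles. In neonate control it was at 211 CPM [176, 251] in 77 myofibre-like cells, 64.9 CPM in myogenic progenitor-like cells and 37.6 CPM in chondrocyte-like cells. The lowest levels in that library included blood endothelial-like cells (3.28 CPM). Myofibre markers summed over the fibroblast lineage were at 7.99, 7.29, 23.5 and 189 CPM in adult injury, adult control, neonate injury and neonate control (6 of 6 listed, with 1 at 0 in adult injury and 1 in neonate control). Their part in the Agtr2 level was not tested. Within the lineage of neonate control, cells with at least 2 Dlk1 UMIs had 180 CPM and the other cells 32.3 CPM.

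Esr1 was high in adult control and neonate injury. In the fibroblast lineage it was at 57.4 CPM [55.2, 59.7] in adult injury, 143 CPM [139, 146] in adult control, 128 CPM [125, 131] in neonate injury and 36.9 CPM [35.4, 38.5] in neonate control. The order was adult control, neonate injury, adult injury and neonate control, with no overlap of intervals. The injury ratios had opposite signs, at -1.31 [-1.38, -1.25] in the adult and 1.79 [1.73, 1.86] in the neonate.

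The 2 high libraries had Esr1 in different cells. In adult control, tenocyte-like clusters were at 195 CPM and fibroblast-like clusters at 77.0 CPM. In neonate injury, tenocyte-like clusters were at 20.9 CPM and fibroblast-like clusters at 197 CPM. Tenocyte-like cells of neonate control had 7.58 CPM, which makes the log2 ratio of adult control over neonate control 4.67 [4.34, 5.05] in tenocyte-like clusters and 0.88 [0.79, 0.97] in fibroblast-like clusters. No cluster of the lineage held 50 cells of both control libraries, so these ratios compare different clusters. In adult control the cluster led by Angptl7, Clu and Chad, tenocyte genes of adult tendon, had 226 CPM over 1785 cells. It held 4809 of the 4895 Esr1 UMIs of the tenocyte-like clusters of adult control, and 1785 of their 2119 cells. The tenocyte-like level of adult control is thus chiefly that of this cluster and not of tenocyte-like cells in general. In adult injury this cluster had 51 cells and 65.8 CPM (log2 ratio -1.77 [-2.17, -1.42]). In the Dpep1 cluster, the other one with at least 50 cells in both adult libraries, Esr1 was at 105 CPM in adult injury and 107 CPM in adult control (log2 -0.03 [-0.37, 0.29]). In fibroblast-like clusters alone the adult injury ratio was -0.43, with 57.0 CPM in adult injury and 77.0 CPM in adult control.

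In the neonate, Esr1 was at least 2-fold higher after injury in 6 of the 8 shared clusters. The exceptions were the cycling cluster led by Cenpf and Ube2c (log2 0.86) and a Tnmd cluster with 6 Esr1 UMIs in neonate injury and 25 in neonate control (log2 -0.18 [-1.84, 1.05]). The cluster led by Wnt2, Efemp1 and Dpp4 had 281 CPM in neonate injury and 43.9 CPM in neonate control. Cells with at least 2 UMIs of Pi16 and Dpp4 in sum, genes of adventitial fibroblasts, had 253 CPM in neonate injury, against 106 CPM in the other cells. Outside the lineage, Esr1 was at 262 CPM [224, 305] in 79 myogenic progenitor-like cells of adult control, at 171 CPM in those of neonate injury and at 19.8 CPM in those of neonate control. In neonate control, chondrocyte-like cells held 513 Esr1 UMIs, 15.8% of those of the library, with 8.74% of the UMIs of all genes. The 28 osteoblast-like cells of that library held 70 Esr1 UMIs, or 2.16%, with 0.365% of the UMIs of all genes. Macrophage-like cells had 14.3 to 20.2 CPM in the 4 libraries.

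**Figure D3:**
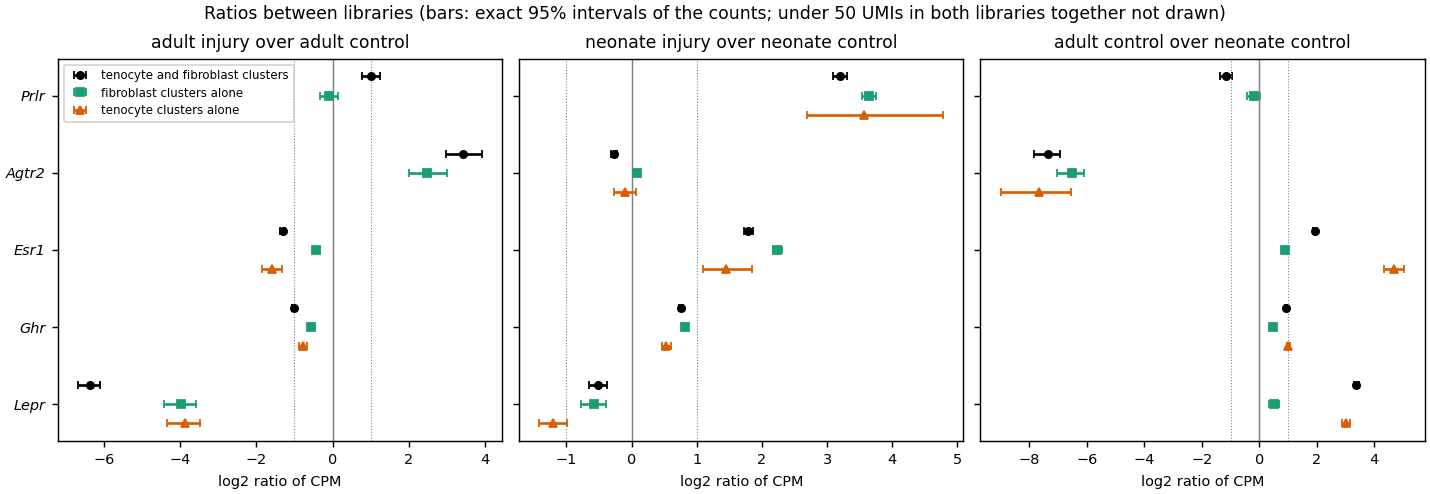
Log2 ratios of CPM between libraries for each gene, with exact 95% intervals of the counts, for the whole fibroblast lineage and for its fibroblast-like and tenocyte-like clusters alone (dotted lines at 2-fold, and ratios from fewer than 50 UMIs left out). The adult Prlr ratio is 1.01 in the lineage and -0.09 in fibroblast-like clusters, while the neonate Prlr ratio is over 3 in all 3 sums.

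Ghr was the most evenly spread of the genes over the 4 libraries. In the fibroblast lineage it was at 221 CPM [217, 226] in adult injury, 448 CPM [442, 454] in adult control, 401 CPM [395, 406] in neonate injury and 236 CPM [232, 239] in neonate control. After thinning, 32.2%, 47.5%, 47.6% and 33.9% of lineage cells had a Ghr UMI in adult injury, adult control, neonate injury and neonate control, against 5.15%, 0.621%, 1.10% and 1.03% of macrophage-like cells. Adult control and neonate injury were high and the other 2 low, the same division of libraries as for Esr1. The log2 ratio was -1.02 [-1.05, -0.98] for adult injury over adult control and 0.77 [0.74, 0.80] for neonate injury over neonate control. Ghr was higher after injury in all 8 shared neonate clusters, with log2 ratios of 0.22 to 0.97. In adult injury it was 0.85 lower on the log2 scale in the Dpep1 cluster (log2 -0.85) and 0.42 lower in the Angptl7 cluster (log2 -0.42).

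Tenocyte-like cells had more Ghr than fibroblast-like cells in adult control, at 549 CPM [540, 558] and 322 CPM [314, 330]. In neonate injury the 2 classes were at 395 and 405 CPM, with overlapping intervals. Among adult control clusters, one of 154 tenocyte-like cells led by Cpxm2 and Fmod had 823 CPM. Outside the lineage Ghr was at 123, 157, 91.2 and 82.3 CPM in blood endothelial-like cells of adult injury, adult control, neonate injury and neonate control. It was at 217 CPM in chondrocyte-like cells of neonate control, where growth plate cartilage is a known target of growth hormone, and at 292 CPM in myofibre-like cells of that library. Macrophage-like cells had 38.0 CPM in adult injury but 5.30, 6.41 and 3.99 CPM in adult control, neonate injury and neonate control. A single cluster led by St18 and Slc37a2, with 309 adult injury cells and none of either control, held 424 of the 455 Ghr UMIs of that class in adult injury (128 CPM). The other 2 macrophage-like clusters of adult injury were at 3.81 and 3.52 CPM. The mean share of cells with a macrophage marker was 0.465 in the St18 cluster, against 0.917 and 0.869 in those. Tnfrsf11a and Tcirg1 were also among the leading genes of the St18 cluster, and its identity was not tested further.

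Lepr was high in adult control and, of the 5 genes, differed most between the adult libraries. In the fibroblast lineage it was at 2.27 CPM [1.85, 2.76] in adult injury, 189 CPM [185, 193] in adult control, 12.7 CPM [11.8, 13.7] in neonate injury and 18.3 CPM [17.2, 19.3] in neonate control. No 2 of these intervals overlapped. The share of thinned cells with a Lepr UMI was 0.901% in adult injury, 21.6% in adult control, 2.49% in neonate injury and 3.17% in neonate control. Macrophage-like cells, at median depths of 6726, 11005, 4680.5 and 11542 UMIs, had a Lepr UMI in 1.09%, 0%, 0.254% and 0% of thinned cells in that order of libraries. Of the 63 Lepr UMIs of adult injury macrophage-like cells, 60 lay in a cluster led by St18 and Slc37a2, so this class is no clean background there. The adult injury log2 ratio was -6.37 [-6.68, -6.09], from 100 UMIs in adult injury and 8530 UMIs in adult control. Tenocyte-like cells were fewer in adult injury, and the ratio was -3.88 [-4.36, -3.48] in tenocyte-like clusters (21.6 and 323 CPM) and -3.97 [-4.42, -3.58] in fibroblast-like clusters (1.31 and 20.7 CPM). Fibroblast-like cells of the 2 adult libraries lay mostly in different clusters, and in the Dpep1 cluster that they shared Lepr was at 21.3 CPM in adult injury and 42.3 CPM in adult control (log2 -0.95 [-1.79, -0.30]).

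Tenocyte-like clusters held 82.2% of the Lepr UMIs of adult control. The Angptl7 cluster had 377 CPM [368, 385] over 1785 cells, and Lepr is among its leading genes. It held 7999 of the 8115 Lepr UMIs of the tenocyte-like clusters of adult control, and 1785 of their 2119 cells. The high tenocyte-like level is thus chiefly that of this cluster. In adult injury the 51 cells of this cluster had 45.6 CPM (log2 ratio -3.03 [-3.51, -2.61]). Cells of adult control with at least 2 UMIs of Angptl7 and Chad in sum had 235 CPM, against 20.8 CPM in the other lineage cells. Cells with at least 2 Tnmd UMIs had 300.1 CPM and those outside this gate 111 CPM. Of thinned adult control cells with a Lepr UMI, 33.6% [30.3, 37.1] had an Esr1 UMI and 57.1% [53.5, 60.6] a Ghr UMI. In cells without a Lepr UMI these shares were 16.1% and 44.8%. The log2 ratio of adult control over neonate control was 3.01 in tenocyte-like clusters and 0.51 in fibroblast-like clusters. As for Esr1, these ratios compare different clusters.

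Outside the lineage, Lepr was found chiefly in endothelial and perineurial cells. The 28 osteoblast-like cells of neonate control, 0.293% of its cells, also held 85 Lepr UMIs, or 4.72% of those of the library. Blood endothelial-like cells had 56.4 CPM [49.0, 64.6] in adult injury, 233 CPM [220, 247] in adult control, 38.8 CPM [33.7, 44.5] in neonate injury and 31.5 CPM [26.8, 36.7] in neonate control. In adult control a cluster of 201 such cells led by Selp, Vwf and Sele, genes of venous endothelium, had 568 CPM, and 53.3% of its thinned cells had a Lepr UMI. The adult injury ratio in blood endothelial-like cells was -2.05 [-2.27, -1.83]. The Selp cluster made up 42 of the 326 blood endothelial-like cells in adult injury and 201 of the 760 in adult control. The ratio was -1.45 [-2.18, -0.84] in the cluster led by Timp4 and Ccdc85a. It was -2.26 [-3.07, -1.32] in the one led by Prnd and Aplnr, which had 58 adult control cells. The part of the Selp cluster's share in the class ratio was not tested. Blood endothelial markers summed over the fibroblast lineage were at 38.4, 25.9, 41.5 and 24.5 CPM in adult injury, adult control, neonate injury and neonate control (6 of 6 listed, with none at 0). Perineurial markers were at 38.7, 69.4, 26.1 and 47.3 CPM and synovial lining markers, Prg4 among them, at 725, 8036, 284 and 854 CPM in that order of libraries (5 of 5 listed in both sets, with none at 0), both highest in adult control as Lepr was. The part of these markers' cells in the lineage level of Lepr was not tested. Perineurial-like cells had 202 CPM in neonate injury and 152 CPM in neonate control, above the fibroblast lineage and the blood endothelial-like cells of both libraries.

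Over the fibroblast lineage, 2 of the 5 genes were at least 2-fold higher in adult injury than in adult control and 3 were at least 2-fold lower. Of the 15513 genes with at least 50 UMIs in this comparison, 16.7% were at least 2-fold higher and 15.5% at least 2-fold lower. In neonate injury over neonate control 2 were higher and 0 lower, where 8.79% and 12.3% of 16578 genes were. In adult control over neonate control 2 were higher and 2 lower, where 11.9% and 17.7% of 16288 genes were. The median log2 ratios of the 5 were -1.02, 0.77 and 0.93, against 0.02, -0.07 and -0.12 over all genes. Since the genes were selected on these contrasts, nothing is read from these counts. The comparisons of adult injury and of age share the adult control library, and those of neonatal injury and of age share the neonate control library.

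**Figure D4:**
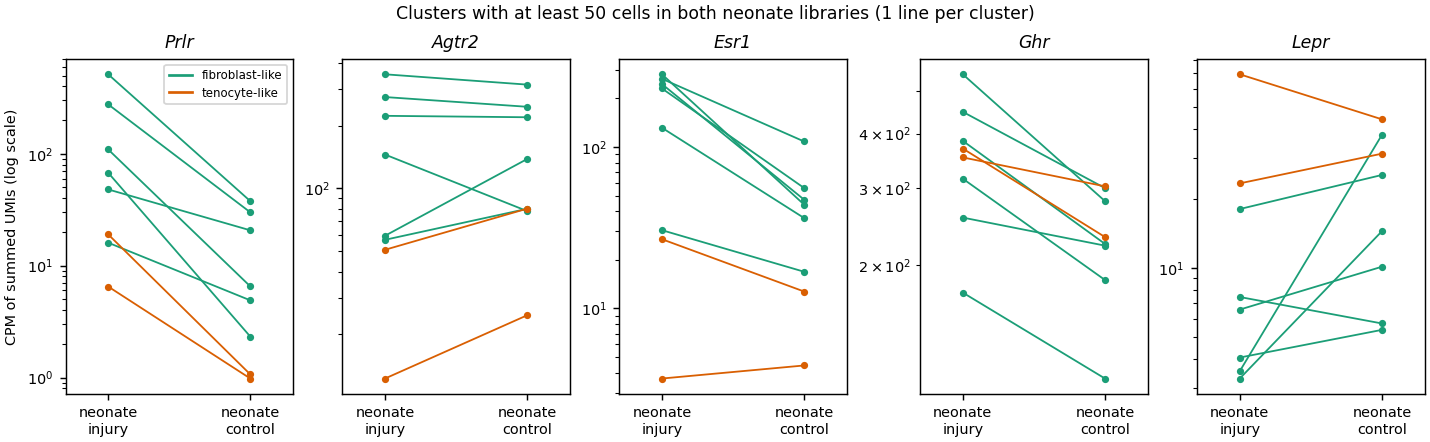
CPM (log scale) of each gene in the 8 fibroblast-lineage clusters with at least 50 cells in both neonate libraries, 1 line per cluster, with neonate injury on the left and neonate control on the right. Prlr and Ghr are higher in neonate injury in all 8 clusters and Esr1 in 7 of them, whereas Agtr2 and Lepr differ in direction between clusters.

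Cells of either sex marker were present in the neonate injury library, which allowed the genes to be compared within 1 library. Cells with Xist and no Y-linked UMI (5994) and cells with a Y-linked UMI and no Xist (1159) had Prlr at 105 and 119 CPM (log2 ratio -0.18 [-0.28, -0.07]). Agtr2, though X-linked, was at 135 and 115 CPM (log2 0.23 [0.13, 0.33]). Esr1 showed the widest difference, at 112 and 206 CPM (log2 -0.87 [-0.96, -0.79]). Ghr was at 426 and 309 CPM (log2 0.46 [0.40, 0.52]), and Lepr at 11.6 and 16.6 CPM (log2 -0.52 [-0.80, -0.23]). Cells of different animals share this library, and sex cannot be told apart from animal. With Y-positive cells alone in both neonate libraries, Prlr was at 119 CPM in neonate injury and 11.1 CPM in neonate control, Esr1 at 206 and 37.9 CPM, and Ghr at 309 and 237 CPM, so that these 3 were higher in neonate injury in cells of 1 sex marker too. In the same cells Agtr2 was at 115 CPM in neonate injury and 157 CPM in neonate control (log2 -0.44 [-0.54, -0.34]), and Lepr at 16.6 and 18.9 CPM (log2 -0.18 [-0.46, 0.08]).

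**Figure D5:**
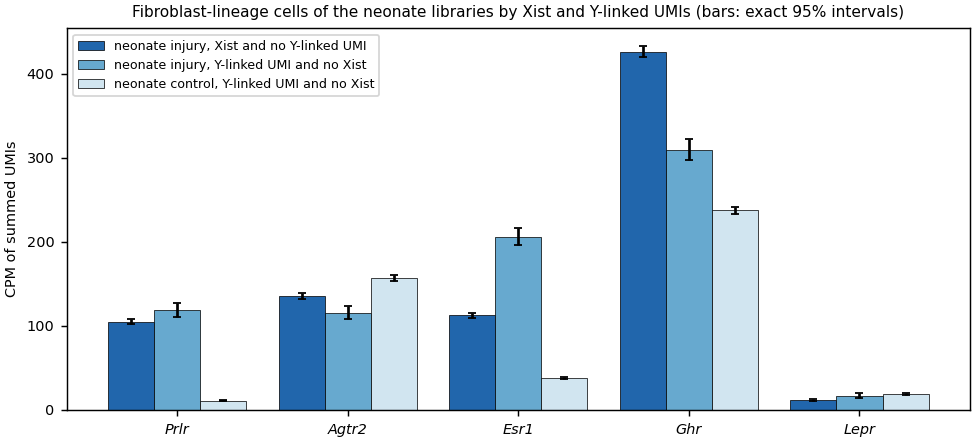
CPM of each gene in fibroblast-lineage cells of the neonate libraries, split by sex marker, with exact 95% Poisson intervals. In the Y-positive cells Prlr is at 119 CPM in neonate injury and 11.1 CPM in neonate control, and within neonate injury Esr1 is lower in Xist-positive cells (112 CPM) than in Y-positive cells (206 CPM).

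Levels of the ligand and list genes below are sums over the whole fibroblast lineage. Tenocyte-like cells made up 139 of its 1857 cells in adult injury and 2119 of 3666 in adult control. They made up 2901 of 7923 cells in neonate injury and 931 of 5308 in neonate control. A change in these shares cannot be told apart from a change within cells, since ratios within a class are not given here. The ligands were barely present. Prolactin (Prl) and growth hormone (Gh) had at most 1 UMI and leptin (Lep) at most 4 UMIs in the fibroblast lineage of any library. Angiotensinogen (Agt), the precursor of angiotensin II, was at 0.722 CPM in neonate injury and 11.4 CPM in neonate control (log2 -3.96), and at 0.576 CPM in adult control (log2 -4.28 over neonate control). Over all measured genes of the lineage, 16.7% were at least 2-fold higher and 15.5% lower in adult injury over adult control (median log2 0.02). The shares were 8.79% and 12.3% in the neonatal injury comparison (median -0.07), and 11.9% and 17.7% in the age comparison (median -0.12). The list counts here and below stand beside these shares, and no list was tested against them. Of the 15 renin-angiotensin genes listed, 0 were at least 2-fold higher and 4 lower among 11 measured in adult injury over adult control (median log2 -0.03). In the neonatal injury comparison 1 was higher and 3 lower among 12 (median 0.07). In the age comparison 3 were higher and 3 lower among 12 (median 0.72). Agtr1a, the main type 1 angiotensin receptor of the mouse, was at 6.22 CPM in adult control and 31.2 CPM in neonate control (log2 -2.32), the direction also seen for Agtr2. Ace, the enzyme that makes angiotensin II, was at 39.5 CPM in neonate injury and 12.4 CPM in neonate control (log2 1.68). Zbtb16, a transcription factor that binds the type 2 receptor protein and is also a glucocorticoid target, was at 15.01 CPM in adult injury and 410 CPM in adult control (log2 -4.77).

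Of the 15 JAK and STAT pathway genes listed, all were measured. In adult injury over adult control 4 were at least 2-fold higher and 0 lower (median log2 0.36), in the neonatal injury comparison 0 were in either direction (median -0.07), and in the age comparison 0 were higher and 4 lower (median -0.64). The kinase gene Jak2 was at 155 CPM in adult injury and 45.9 CPM in adult control (log2 1.75). Cish, a STAT5 target that restrains cytokine receptors, was at 4.32 CPM in adult control and 47.3 CPM in neonate control (log2 -3.45). Of the 10 genes of the growth hormone axis, 2 were higher and 1 lower in adult injury (median 0.11), 1 higher and 0 lower in neonate injury (median -0.06), and 1 higher and 4 lower in adult control over neonate control (median -0.83). Igf1, the growth factor induced by growth hormone, was at 705 CPM in adult injury and 188 CPM in adult control (log2 1.91), where Ghr had the opposite sign. It was at 1987 CPM in neonate injury and 855 CPM in neonate control (log2 1.22), where Ghr had the same sign. None of the 6 genes of leptin receptor trafficking and response differed by 2-fold in any of the 3 comparisons, and Leprot, which controls the amount of leptin receptor at the cell surface, was at 107 CPM in adult injury and 87.5 CPM in adult control (log2 0.30).

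Among 16 genes of oestrogen response and co-regulation, 4 of 13 measured were at least 2-fold higher and 2 lower in adult injury (median -0.17), 1 of 14 higher and 3 lower in neonate injury (median -0.10), and 2 of 14 higher and 3 lower in the age comparison (median 0.13). Greb1, an oestrogen-induced gene of breast cells, was at 12.6 CPM in adult injury and 1.15 CPM in adult control (log2 3.44), where Esr1 had the opposite sign. The co-activator gene Ncoa3 was at 29.0 CPM in adult injury and 132 CPM in adult control (log2 -2.18). Among 17 other nuclear receptor genes, 5 were higher and 4 lower in adult injury (median 0.15), 3 higher and 0 lower in neonate injury (median 0.43), and 6 higher and 3 lower in adult control over neonate control (median 0.40). The mineralocorticoid receptor gene Nr3c2 was at 9.68 CPM in adult injury and 72.7 CPM in adult control (log2 -2.91), and the thyroid hormone receptor gene Thrb at 122 CPM in adult control and 7.26 CPM in neonate control (log2 4.07).

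Of 22 other cell-surface hormone receptor genes, 5 of 16 measured were at least 2-fold higher and 5 lower in adult injury (median -0.17), 1 of 16 higher and 2 lower in neonate injury (median -0.17), and 2 of 17 higher and 6 lower in the age comparison (median -0.70). Mc5r, a melanocortin receptor gene, was at 3.16 CPM in adult injury and 0.221 CPM in adult control (log2 3.77), and the oxytocin receptor gene Oxtr at 0.363 and 2.81 CPM (log2 -2.91). Of the 7 ligand and processing genes, 2 were measured, with 1 higher and 0 lower in adult injury (median 2.41) and 0 higher and 2 lower in both other comparisons (medians -2.57 and -5.25).

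For each receptor, the genes with the most similar pattern were taken over 42 sums of 1 class in 1 library, by Pearson's r of log2(CPM + 1) among 9640 genes. These sums share libraries and depth, so the values describe likeness only. Agtr2 was most like Nrk (r = 0.90), Rtl3, Plagl1, Zim1 and Igf2. Ghr was close to Nfib (r = 0.90), Rbfox2, Yap1 and Tgfb2, and Lepr most like Fmo1 (r = 0.85), Meox1, Ramp2, Ltbp4 and Gja1. Esr1 was less closely matched, by Barx2 (r = 0.69), Gpx3, Htra3 and Gxylt2, and Prlr by Osr2 (r = 0.68), Osr1, Wnt2, Islr2 and Cercam. Among the 5 receptors themselves, the highest value was that of Ghr and Lepr (r = 0.60) and the lowest that of Prlr and Lepr (r = -0.04).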

How the data were processed

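Per the file headers, the authors' deposited matrices hold UMI counts per gene and barcode from Cell Ranger 8.0.1, on GRCm39 per the submitters' processing notes. The annotation and the treatment of introns are not given in the sources used here. Barcodes under 500 genes, under 1000 UMIs or over 15% mitochondrial UMIs were dropped, and the highest Scrublet scores were removed at 0.8% per 1000 barcodes (171, 299, 1773 and 870 in adult injury, adult control, neonate injury and neonate control). Counts were scaled to 10000, log-transformed and clustered jointly with scanpy 1.11.5 (2000 variable genes without the 5 receptors, 30 principal components, 15 neighbours, Leiden resolution 1, no batch correction), and any cluster left unnamed with 50 cells or more was split further (resolution 0.5).

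Clusters were named from markers of 21 classes (mean marker share of at least 30%, at least 3 markers in 25% of cells), and they stayed unnamed where another lineage's markers reached 40%, where other markers led, or at low depth. This gave 68 clusters, 15 of them unnamed (1.82% to 6.17% of cells). These thresholds, and the choice to count a cluster with Pi16 and the synovial gene Prg4 as fibroblast, were set after the data were seen. Names were rebuilt here and can differ from the study's own. The receptors, markers and gene lists were chosen with earlier results of these data known.

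CPM intervals are exact Poisson, share intervals exact binomial (Clopper-Pearson), and ratio intervals exact binomial on the counts, all at 95%; 0.5 counts were added in ratios. A count of 0 is read against a floor of 3 counts. Gates need at least 2 UMIs summed over their marker genes. Named genes were the 5 receptors, genes of the fixed lists, chiefly up to 4 per list with the largest ratios among genes with at least 50 UMIs, and the 5 most similar genes per receptor; some genes that this rule names are not reported here. With 1 library per group no test was run. The ratio steps were tested on simulated data. Of 97 list genes, 1 was not found by symbol, and 26 symbols listed more than once were read at their earliest entry. Promoters come from a RefSeq table of GRCm38.p6, a build other than that of the counts.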

Additional observations from a re-analysis of the deposited data

Results flagged for a closer look

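The Esr1 ratios after injury had opposite signs at the 2 ages in the fibroblast lineage and were both past 2-fold. They were -1.31 in the adult and 1.79 in the neonate, a difference of -3.11 on the log2 scale (adult minus neonate). With 1 library per group, this difference was not tested. In fibroblast-like clusters alone the ratios were -0.43 and 2.24, and in tenocyte-like clusters alone -1.58 and 1.45. The libraries fill different clusters of both classes, and in the 2 tenocyte-like clusters with at least 50 cells in both neonate libraries the ratios were 1.06 and -0.18. The neonate ratio was 2.44 when cells with a Y-linked UMI and no Xist were compared in both neonate libraries, and in the adult, cells with Xist and no Y-linked UMI had 59.2 CPM in adult injury and 141 CPM in adult control.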

How the results depend on the processing

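Over 15 alternatives, the neonate Prlr ratio ran from 2.99 to 3.64 and that of Esr1 from 1.45 to 2.44. Over 14, the adult Lepr ratio from -6.71 to -3.88, and the Agtr2 ratio of adult control over neonate control from -7.66 to -6.53. Signs reversed in fibroblast clusters alone for the adult Prlr ratio (-0.0917) and the neonate Agtr2 ratio (0.0901). Of 86 counts of receptors past 2-fold, 72 were within 1.5 times. For adult injury, the 2 higher became 1 with the looser filter, doublets kept, resolution 2, cells gated 1 by 1, thinning to 2000 UMIs, scaling by the median ratio, fibroblast clusters alone, and (added after seeing the data) without the Pi16 Prg4 cluster; in each the lost gene was Prlr. The 3 lower became 1 without G2M cells, which kept 1075 of 1857 adult injury and 3536 of 3666 adult control cells, and 1 in fibroblast clusters alone. Neonate injury: 0 lower became 1 in tenocyte clusters alone. Adult control over neonate control: 2 higher became 0 and 2 lower became 1 in fibroblast clusters alone, and 2 lower became 1 without the Pi16 Prg4 cluster. The cause was not tested beyond the clusters and cells each leaves out. Without the minimum of 50 UMIs, background shares were 13.7% and 21% (8.79% and 12.3%) in the neonatal comparison and 28.1% lower (17.7%) in the age comparison. No paired analysis was possible because each group held 1 library. Tenocyte-like cells of adult injury held 2081140 UMIs in all, and the 3 Prlr and 4 Agtr2 UMIs among them limit the precision of those levels.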
